A study of Mus musculus with 9 samples.

Results

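The comparison set the dorsal region of the mouse brainstem against its ventral region, with 3 arrays each, 6 of the 9 arrays of the series. The members are all samples that the submitters named dorsal or ventral, and the 3 arrays of a region called target were left for reference. Both regions were taken from Chat-Cre:Ai9 males, 8 weeks old. Chat-Cre drives Cre recombinase from the locus of choline acetyltransferase, so in cholinergic cells, and the Ai9 allele gives red fluorescence to cells in which Cre has been active. No treatment was named for any group. Total RNA was labelled and hybridised to Illumina whole-genome bead arrays of 45281 probes. Equal replicate numbers mean the same animal. The sources used here do not say how the tissue was taken, how large each region was or how many cells it held. The series is titled for neurotensin neurons of the brainstem that act on non-REM sleep, and which regions express Nts is the question these arrays can address.

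The brainstem joins the forebrain to the spinal cord and is built of many small nuclei. In the developing hindbrain, neurons that come from the dorsal plate mostly serve sensory relay, and those from the ventral plate include the motor nuclei. Its noradrenaline, serotonin and acetylcholine neurons, together with neurons that release peptides such as neurotensin, help to set sleep and wakefulness. Long myelinated tracts run through it, so oligodendrocyte RNA makes up a large part of any brainstem sample.

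Between 17997 and 19945 probes were above background on a dorsal array and between 16703 and 18645 on a ventral array, and the raw median intensity ran from 146.1 to 167.8 in dorsal and from 165.8 to 230.9 in ventral. Over the tested probes, arrays of the same region correlated between 0.924 and 0.961 and arrays of different regions between 0.886 and 0.913. The tissue label was checked against markers. Slc17a6, the vesicular glutamate transporter of subcortical neurons, read 12.05 to 12.20 in dorsal and 11.84 to 12.01 in ventral (log2 normalised intensity, the scale of all levels below). The hindbrain genes Hoxa2 and Hoxb3 were above background on 3 dorsal arrays each, and on 2 and 3 ventral arrays. The forebrain genes Emx1 and Tbr1, the cortical transporter gene Slc17a7 and the cerebellar granule cell gene Gabra6 lay at background on all 6 arrays. Other genes of the forebrain and cerebellar lists did not. Of the 25 genes listed for forebrain neurons 11 passed the detection filter, and of the 22 listed for cerebellar neurons 10 did. Among them were Cux2, Fezf2, Zic1 and Cbln1, which were above background on all 6 arrays. Defining genes of some brainstem neurons were also missing. Th, Dbh, Slc6a4, Fev, Slc18a3, Slc5a7 and Isl1 lay at background on all 6 arrays, Tph2 was above it on 1 array of each region, and of 3 Chat probes none exceeded it on more than 1 array of a region.

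A total of 18790 probes were above background on at least 3 of the 6 arrays and were tested. With limma and Benjamini-Hochberg adjustment over all of them, 1726 probes (9.19%) passed at an adjusted p of 0.05. Of these, 882 (4.69%) were higher in dorsal and 844 (4.49%) were lower in dorsal than in ventral. The median size of a called difference was 1.23 on the log2 scale, and 190 called probes differed more than 4-fold, 88 of them higher in dorsal and 102 lower. The dorsal and ventral arrays did not overlap for 27.6% of the tested probes and 28.6% of the genes by brightest probe, called or not. For 268 called probes, 1 region had no array above background. This was ventral for 173 probes that were higher in dorsal, and dorsal for 95 that were lower. Such a probe passed the detection filter only through all 3 arrays of the other region, so its direction followed from the filter. Target arrays entered the normalization and the shared estimate of spread. Their mean was intermediate for 90.7% of the called probes, against 44.8% of all tested probes. The called probes were selected for a wide gap between dorsal and ventral (median size 1.23, against 0.32 for all tested probes). A wide gap holds another value more often than a narrow gap, so the contrast of these shares cannot be read as a property of target.

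With 1 probe per gene, the brightest of those tested, 13203 genes remained, of which 697 (5.28%) were called higher in dorsal and 549 (4.16%) lower, 9.44% in all. The counts of called list members below stand beside these shares. The median difference of all these genes was 0.06. The split between directions depended on the scaling. With median centring of the arrays instead of quantile scaling, the median difference of all tested probes was 0.38 in place of 0.04, and 84.3% of the 2790 calls were higher in dorsal, against 51.1% with quantile scaling. All 1726 called probes kept their direction, and 433 of the 844 lower ones still passed as lower. The count also rested on particular arrays: without dorsal replicate 2 it was 1022 and without dorsal replicate 3 it was 1070, and 814 probes (392 higher, 422 lower) passed whichever of the 6 arrays was left out. With the mouse as a block, 1477 probes (7.86%) passed, of which 1364 were among the 1726, and with the block on the 6 arrays alone 398 passed.

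**Figure D1:**
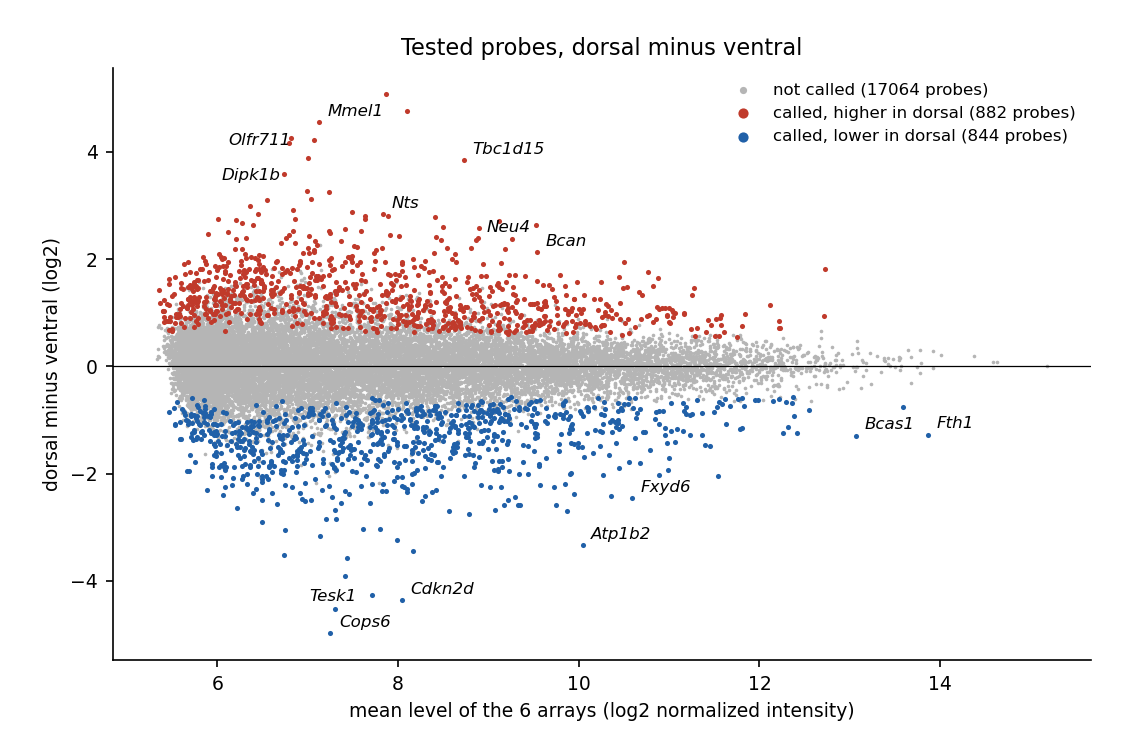
Each point is 1 of 18790 tested probes, placed by its mean level on the 6 arrays (log2 normalised intensity) and by its dorsal minus ventral difference (log2). Red probes (882) were called higher in dorsal, blue probes (844) lower and grey probes were not called, and the called differences span dim and bright probes alike. Some of the largest points are clone-named or predicted loci and carry no label.

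The array holds several probes for many genes, which allows a called difference to be read again at another place in the same transcript or in another transcript of the gene. In 715 genes a called probe was accompanied by at least 1 further tested probe under the same array name. The probe of lowest p stood for the call and was set against the brightest of the others alone. The further probe differed in the same direction in 377 (52.7%). It was itself called in the same direction in 19 genes and in the opposite direction in 14. The median size of the called difference was 1.24, and the median of the other probe, signed by that direction, was 0.02. The called probe was picked by its p, so part of the gap between these medians follows from that choice. Where both probes were above background on all 6 arrays, 239 of 459 genes (52.1%) had the same direction. Over all 3476 genes with several tested probes, the levels of the brightest and the next probe correlated (Pearson r = 0.709 across genes). The probes were ordered by level, which alone makes their levels correlate, so this value cannot show agreement between them. Their dorsal minus ventral differences, which were not ordered, had r = 0.05. Genes are not independent replicates, and these values only describe the table. Most calls were thus not repeated at the 1 other probe compared, and genes below are given with their other tested probes where these bear on the call.

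**Figure D2:**
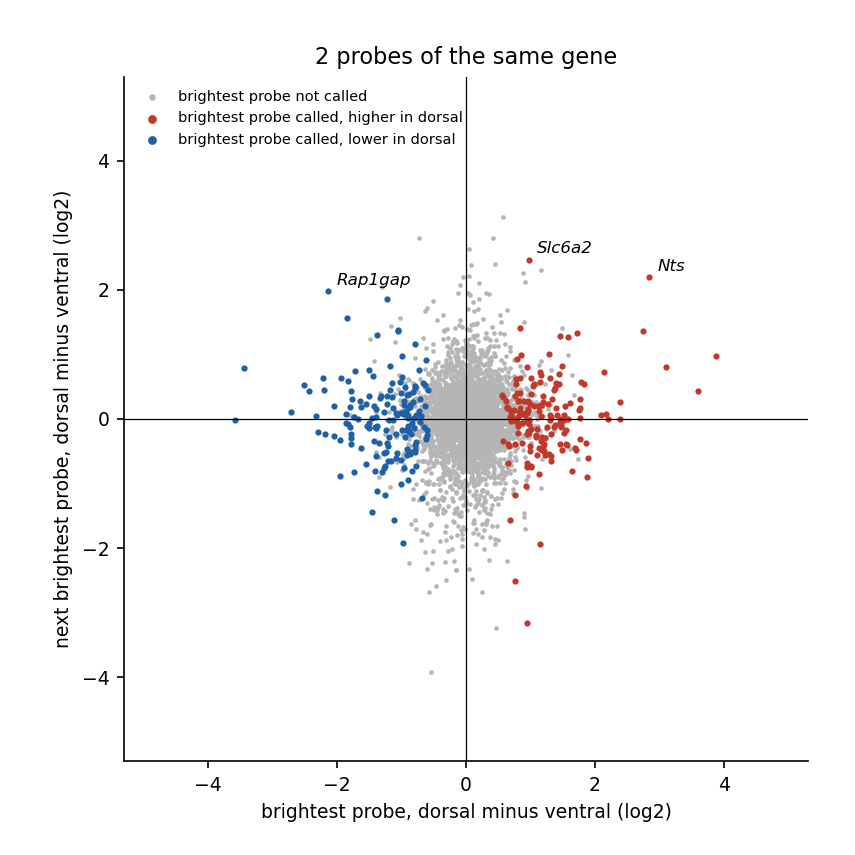
Each point is 1 of 3476 genes, with the dorsal minus ventral difference (log2) of its brightest tested probe across and that of its next brightest probe upward. Points whose brightest probe was called are red (higher in dorsal) or blue (lower); they spread along the horizontal axis, while Nts lies far into the upper right and Rap1gap in the upper left.

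In 9 genes, clone-named and predicted loci apart, all tested probes, 2 for each gene, were called in the same direction. Higher in dorsal were Nts, Slc6a2 and Morn1. Lower in dorsal were Fth1, Vdac1, Fam50a, Brd9, Tmem70 and a gene that the array names NAT5. At the dimmer Nts and Slc6a2 probes and at both Morn1 probes, no ventral array was above background. The direction of these probes followed from the detection filter, so they are no independent repeat of a call. Nts encodes the precursor of neurotensin, a peptide released by neurons of several brainstem nuclei. Its brighter probe read 9.24, 9.25 and 9.29 on the dorsal arrays, against 6.71, 5.87 and 6.67 on the ventral arrays. The dorsal values were close together and above every ventral value, and 2 of 3 ventral arrays were above background. The level was 7.18-fold that of ventral (difference 2.84, SE 0.23, adjusted p = 3.58e-04). Differences are dorsal minus ventral on the log2 scale throughout, and adjusted p are those of limma. The dimmer probe read 7.41, 7.24 and 7.46 in dorsal, against 5.14, 4.99 and 5.40 in ventral, where no array was above background. It was at least 2.96-fold higher in dorsal (adjusted p = 2.53e-04). Here and below, such a bound compares the bright region's mean with the dim region's, after raising any dim array that read less to its lowest level above background. In this bulk tissue, fewer cells of a type and less RNA per cell cannot be told apart.

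The promoter of Nts, from 250 bases before to 50 after the RefSeq start on the minus strand at chr10:102490369-102490668 (GRCm38.p6), is shown because Nts is the peptide gene the series is titled for and was called at both its probes. It was searched on both strands for TGACTCA (the AP-1 motif), TGACATCA and TGACGTCA (forms of the cAMP response element), TATAAA and GGGCGG (the GC box). Capitals mark the matches, an AP-1 match on the reverse strand and TGACATCA once. The window held no TGACGTCA, TATAAA or GGGCGG. For contrast, the downstream of 2 RefSeq starts of Fth1, a gene that was lower in dorsal, is shown from chr19:9982396-9982695 on the plus strand, with GGGCGG present 3 times, on either strand. Over all 32851 promoters of the table, 5.20% held TGACTCA, 3.62% held TGACATCA and 35.7% held GGGCGG. The GC content was 49% for Nts and 67% for the Fth1 window shown. The window of the other Fth1 start had 36.7%, with 1 TATAAA match and no GGGCGG, so the contrast depends on the start chosen. A match describes the letters and was not tested for any factor.
Nts: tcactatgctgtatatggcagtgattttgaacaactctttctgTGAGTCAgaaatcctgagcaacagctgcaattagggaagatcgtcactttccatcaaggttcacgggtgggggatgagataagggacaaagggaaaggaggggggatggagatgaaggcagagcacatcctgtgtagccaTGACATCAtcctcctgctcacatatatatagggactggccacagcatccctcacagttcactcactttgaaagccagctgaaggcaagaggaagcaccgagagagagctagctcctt
Fth1: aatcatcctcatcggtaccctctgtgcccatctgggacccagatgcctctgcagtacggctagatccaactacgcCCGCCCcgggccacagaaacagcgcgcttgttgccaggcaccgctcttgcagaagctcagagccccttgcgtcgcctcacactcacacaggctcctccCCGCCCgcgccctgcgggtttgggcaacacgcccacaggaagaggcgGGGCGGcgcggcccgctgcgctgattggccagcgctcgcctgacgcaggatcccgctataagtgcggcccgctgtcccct

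Slc6a2 encodes the noradrenaline transporter, which returns noradrenaline to the axons that released it. Its brighter probe read 7.42, 7.80 and 7.20 in dorsal, against 6.69, 6.08 and 6.73 in ventral. The groups did not overlap, with a difference of 0.97 (SE 0.24, adjusted p = 0.0382) that did not pass with the mouse as a block (adjusted p = 0.0774) or without any 1 of 5 arrays, all but ventral replicate 3 (highest adjusted p = 0.131). Its dimmer probe read 6.84, 7.21 and 7.37 in dorsal, against 4.74, 4.68 and 4.58 in ventral, where it lay at background. This probe was at least 2.53-fold higher in dorsal (adjusted p = 3.44e-04) and passed with the block (adjusted p = 0.00292). It passed the detection filter only through the dorsal arrays, so its call does not back that of the brighter probe. Both Nts probes and both Slc6a2 probes had means in target above those of dorsal, 9.87 and 8.19 for Nts and 8.95 and 7.71 for Slc6a2. Morn1, a gene of a protein with MORN repeats, was at least 4.93-fold higher in dorsal at its brighter probe (adjusted p = 0.00105). The dimmer Morn1 probe, at 5.87 to 5.97 in dorsal, was at least 1.09-fold higher (adjusted p = 0.0207), and this call was lost without dorsal replicate 1, 2 or 3 or ventral replicate 3 (highest adjusted p = 0.0776).

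Among the genes lower in dorsal at all their probes, Fth1 was the brightest. It encodes the ferritin heavy chain, which stores iron, and it is abundant in oligodendrocytes. Its brighter probe read 13.11, 13.23 and 13.35 in dorsal, against 14.47, 14.58 and 14.47 in ventral, and its dimmer probe 13.14, 13.27 and 13.23 in dorsal, against 13.82, 14.20 and 13.90 in ventral. At both probes every dorsal array lay below every ventral array. The differences were -1.28 (SE 0.15, adjusted p = 0.00162) and -0.76 (SE 0.16, adjusted p = 0.0216). The dimmer probe's call was lost without dorsal replicate 1, 2 or 3 or ventral replicate 2 (highest adjusted p = 0.0730). Vdac1, the main pore of the outer mitochondrial membrane, read 11.19, 11.21 and 11.22 in dorsal, against 12.35, 12.34 and 12.43 in ventral, a difference of -1.16 (SE 0.15, adjusted p = 0.00231). Its dimmer probe differed by -0.65 (SE 0.16, adjusted p = 0.0391), which did not pass with the block (adjusted p = 0.0754) or without any 1 of the 6 arrays (highest adjusted p = 0.120).

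The other 4 of these genes were dimmer, and each had a probe whose call was lost without 1 or more arrays. NAT5, which matched no RefSeq symbol, differed by -1.11 at its brighter and -1.57 at its dimmer probe (adjusted p = 0.0275 and 0.00560). The brighter call was lost without dorsal replicate 1 or 2 or ventral replicate 2 or 3 (highest adjusted p = 0.0967). Fam50a, a nuclear protein gene on the X chromosome, differed by -0.97 and -1.93 (adjusted p = 0.0275 and 0.0138). Its calls were lost without dorsal replicate 1 or 2 or ventral replicate 1 or 2 at the brighter probe (highest adjusted p = 0.0998), and without dorsal replicate 3 at the dimmer (adjusted p = 0.0508). Brd9, a bromodomain subunit of a chromatin remodelling complex, differed by -0.68 and -1.22 (adjusted p = 0.0378 and 0.0312), and the brighter probe did not pass with the block (adjusted p = 0.0543) or without any 1 array (highest adjusted p = 0.104). The dimmer Brd9 probe passed without dorsal replicate 3 and did not without any other 1 array (highest adjusted p = 0.104). Tmem70, needed to assemble mitochondrial ATP synthase, differed by -0.83 and -0.81 (adjusted p = 0.0480 and 0.0426), and neither probe passed with the block (adjusted p = 0.0501 and 0.0792). The brighter Tmem70 probe kept its call only when ventral replicate 2 was the array left out, and the dimmer in none of the 6 cases (highest adjusted p = 0.128 and 0.120). With arrays centred on their medians, the brighter probes of Fth1 and Vdac1 and the dimmer probes of NAT5 and Fam50a still passed, and the other 8 probes of the 6 genes did not, although all stayed lower in dorsal.

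**Figure D3:**
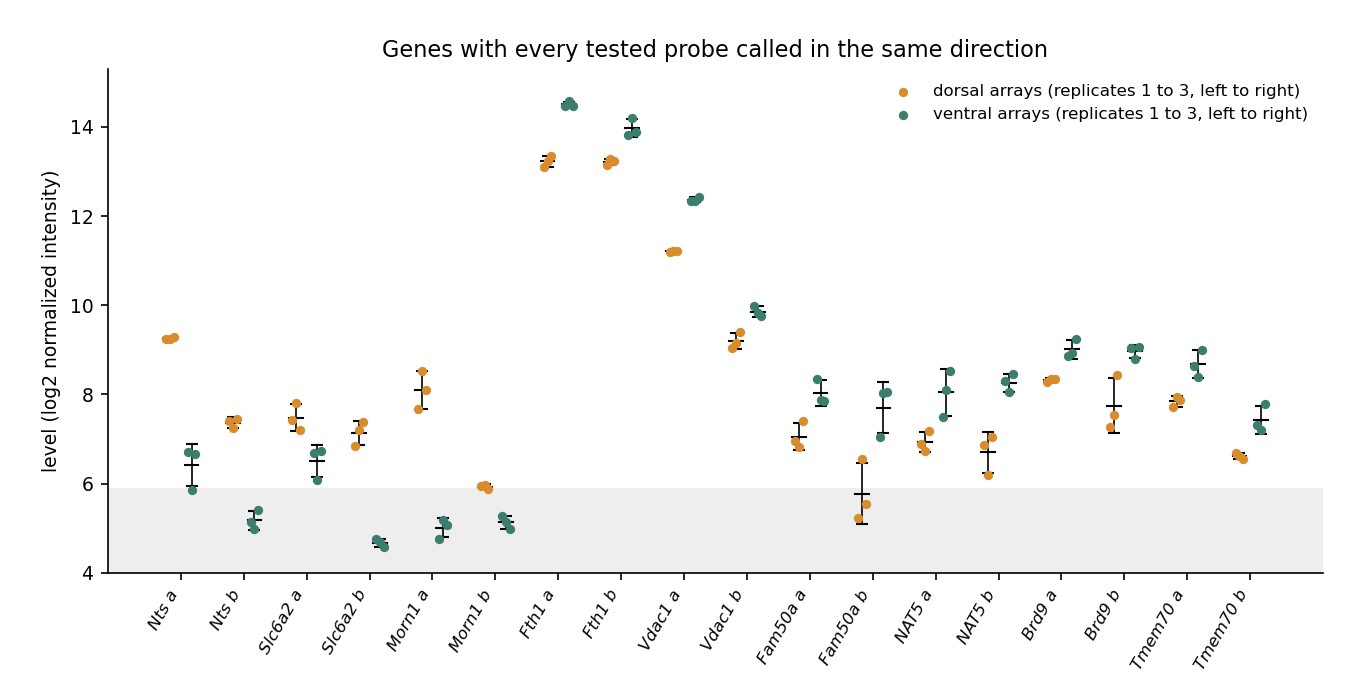
Levels (log2 normalised intensity) of the 9 genes, clone-named and predicted loci apart, whose 2 tested probes, a (brighter) and b (dimmer), were all called in the same direction. Points are the dorsal arrays (orange, left) and the ventral arrays (green, right) of replicates 1 to 3, bars are means with SD (n = 3), and the grey band ends at 5.90, the highest of the 6 arrays' lowest levels above background. Dorsal points lie above ventral points for Nts, Slc6a2 and Morn1 and below them for the other 6 genes.

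The 12 largest differences with dorsal higher, clone-named and predicted loci apart, were those of Mmel1, Olfr711, Tbc1d15, Dipk1b, Nat2, Morn1, Olfr214, Nts, Olfr10, Clrn1, Ccdc91 and Olfr64. Mmel1, a membrane peptidase related to neprilysin that cuts small peptides, read 9.48, 8.90 and 9.84 in dorsal, against 5.04, 4.77 and 4.76 in ventral. It was above background on all 3 dorsal arrays and on no ventral array, and at least 12.2-fold higher in dorsal (adjusted p = 2.33e-04). Tbc1d15, which switches off the vesicle GTPase Rab7, read 10.31, 10.77 and 10.86 in dorsal, against 5.66, 7.08 and 7.69 in ventral, with 2 ventral arrays above background. Its level was 14.3-fold higher in dorsal (adjusted p = 0.00140). Nat2, an enzyme that acetylates arylamines, read 8.80, 8.84 and 8.96 in dorsal, against 5.21, 5.49 and 6.13 in ventral, and was 9.56-fold higher (adjusted p = 2.52e-04). In these 3 genes every dorsal array lay above every ventral array, and in ventral 0, 2 and 1 arrays exceeded background for Mmel1, Tbc1d15 and Nat2.

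Among the 12 were 4 probes named for olfactory receptors, the odorant receptors of nasal sensory neurons. Olfr711 read 9.60, 9.08 and 8.15 in dorsal and lay at background in ventral, at least 8.82-fold higher in dorsal (adjusted p = 2.52e-04). Olfr10, Olfr214 and Olfr64 also lay at background on all ventral arrays and were at least 5.40-fold, 4.16-fold and 3.79-fold higher. A dimmer Olfr10 probe differed by 1.37 and did not pass (adjusted p = 0.114). Dipk1b was at least 6.66-fold higher at its brighter probe (adjusted p = 4.95e-05), while its dimmer probe differed by 0.43 (adjusted p = 0.359). Clrn1, a membrane protein of hair cells and photoreceptors, was at least 3.41-fold higher (adjusted p = 0.00127). Ccdc91, a protein of Golgi transport, read 10.35, 10.51 and 10.54 in dorsal, against 8.47, 7.40 and 7.42 in ventral, and was 6.50-fold higher (adjusted p = 0.00127). All 12 passed with the block and without any 1 of the 6 arrays, and all but Olfr214 (adjusted p = 0.0502) with the 6 arrays alone and the block. For Mmel1, Olfr711, Dipk1b, Morn1, Olfr214, Olfr10, Clrn1 and Olfr64 no ventral array was above background. Their direction followed from the detection filter, so these passes do not back it.

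The 12 largest differences with dorsal lower were those of Cops6, Cdkn2d, Tesk1, Gab1, Erbin, Atp1b2, Fam120a, Lrig1, Cmpk2, Atpaf2, Slc35b4 and Laptm5. Cops6, a subunit of the COP9 signalosome, which trims NEDD8 from cullin ubiquitin ligases, read 4.77, 4.88 and 4.65 in dorsal, against 9.67, 9.91 and 9.64 in ventral. No dorsal array exceeded background, and the level was lower there by at least 17.2-fold (adjusted p = 8.68e-06). Of 9 tested signalosome genes it was the 1 that passed, and the median of the 9 was -0.31. Cdkn2d, an inhibitor of the cell cycle kinases CDK4 and CDK6, read 5.94, 6.03 and 5.60 in dorsal, against 10.28, 10.28 and 10.11 in ventral, 20.6-fold lower in dorsal (adjusted p = 2.39e-05). None of the other 4 tested cyclin-dependent kinase inhibitor genes passed. Tesk1, a kinase that acts on cofilin and the actin skeleton, read 5.50, 5.56 and 5.69 in dorsal, with 1 array above background, against 9.87, 10.01 and 9.65 in ventral, 19.2-fold lower in dorsal (adjusted p = 4.99e-04).

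Gab1, a docking protein of receptor kinases, lay at background in dorsal and read 8.46 to 8.53 in ventral, a drop of at least 7.26-fold (adjusted p = 5.45e-04). Erbin, which binds the ERBB2 receptor, read 5.59, 6.86 and 6.90 in dorsal, against 10.17, 9.84 and 9.67 in ventral (difference -3.44, SE 0.35, adjusted p = 8.28e-04). Its dimmer probe went the other way, with a difference of 0.78 that did not pass (adjusted p = 0.173). Lrig1, which restrains epidermal growth factor receptors, differed by -3.03 (SE 0.30, adjusted p = 7.60e-04). Of the remaining genes, Fam120a (-3.04), the mitochondrial nucleotide kinase gene Cmpk2 (-2.85), the ATP synthase assembly gene Atpaf2 (-2.70), and Laptm5, of lysosomes in blood cells and microglia (-2.59), passed with adjusted p from 5.46e-04 to 0.00152. Slc35b4, a nucleotide sugar transporter, lay at background in dorsal and was at least 3.73-fold lower there (adjusted p = 0.00494). All 12 passed with the block, without any 1 of the 6 arrays, and with the 6 arrays alone and the block. For Cops6, Gab1 and Slc35b4 no dorsal array was above background. Their direction followed from the detection filter, so these passes do not back it.

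**Figure D4:**
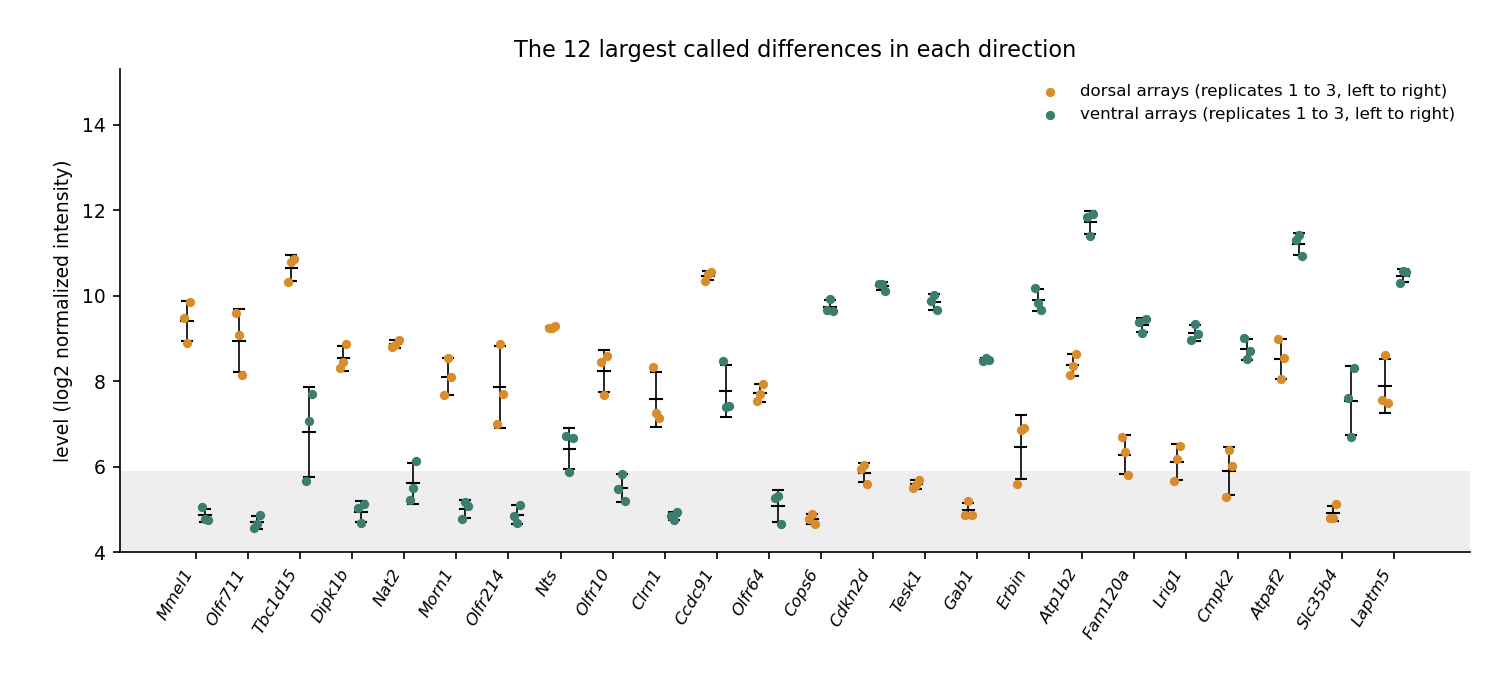
Levels (log2 normalised intensity) of the 12 genes with the largest called differences in each direction, those higher in dorsal on the left and those lower in dorsal on the right. Points are the dorsal (orange, left) and ventral (green, right) arrays of replicates 1 to 3, bars are means with SD (n = 3), and the grey band ends at 5.90, the highest of the 6 arrays' lowest levels above background. No gene shows overlap between the regions, and 8 of the 12 genes on the left have all 3 ventral arrays inside the band at background.

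Among peptide signals, Nts was the 1 gene called. Of 27 neuropeptide genes 25 had a probe, 11 passed the detection filter and 10 of these did not pass the test, with a list median of -0.18 beside 0.06 for all tested genes. Gal, the galanin precursor, read 5.95, 6.10 and 6.42 in dorsal, against 6.74, 6.54 and 5.99 in ventral, and the regions overlapped (difference -0.27, adjusted p = 0.543). With median centring this difference was 0.042. Calca, which encodes the peptide CGRP, had 4 probes, none above background on more than 1 dorsal array or on any ventral array. No gene passed among 14 tested receptors for neuropeptides and orexin (of 31 listed). The neurotensin receptor genes gave 0.51 for Ntsr1 (adjusted p = 0.343) and 0.19 for Ntsr2 (adjusted p = 0.571). Hcrtr2, a receptor for orexin, lay at background in ventral and was at least 1.34-fold higher in dorsal, which did not pass (adjusted p = 0.188) and Cckbr, a receptor for cholecystokinin, had -1.10 (adjusted p = 0.132), which passed as lower without dorsal replicate 1 (adjusted p = 0.0354).

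Of 15 tested genes on the list of peptide-degrading peptidases, Mmel1 was higher, as above, and Scg5 lower in dorsal, with a list median of 0.17. Scg5 is not itself a peptidase but the chaperone of the prohormone convertase PC2. It read 8.87, 8.94 and 9.09 in dorsal, against 10.07, 10.03 and 10.04 in ventral, with no overlap (difference -1.08, SE 0.17, adjusted p = 0.00481). With median centring its difference was -0.67 and did not pass (adjusted p = 0.101).

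Of the genes listed for noradrenergic, for serotonergic and dopaminergic, and for cholinergic neurons, 8 of 11, 7 of 17 and 3 of 8 passed the detection filter. Besides Slc6a2, no other of 8 tested noradrenergic genes passed. Of 7 tested serotonergic and dopaminergic genes, Maob, an enzyme that breaks down amines, was higher by 0.98 (SE 0.25, adjusted p = 0.0441). That call did not pass with the block (adjusted p = 0.0623) or without any 1 of 5 arrays, all but dorsal replicate 2 (highest adjusted p = 0.142), and a dimmer Maob probe differed by -0.21. Of 3 tested cholinergic genes, Prima1, which anchors acetylcholinesterase in the membrane, read 7.45, 7.83 and 7.73 in dorsal, against 6.46, 5.94 and 6.12 in ventral, with no overlap (difference 1.50, SE 0.24, adjusted p = 0.00556). It passed with the block and without any 1 of the arrays, but not with the 6 arrays alone and the block (adjusted p = 0.0616). That last fit lost 44 of the 81 called named genes. Among them were also Scg5, Grik4, Ina, Sox10, Arc, Hspb6 and Ncan, whether or not this is repeated where they are described. None of 4 tested genes of cranial motor neurons passed, where Slc10a4 had 0.85 (adjusted p = 0.307) and the filament gene Prph 0.47 (adjusted p = 0.260). None of 17 tested receptor genes for monoamines, acetylcholine and adenosine passed. There the adrenergic receptor genes gave 1.27 for Adra2c (adjusted p = 0.0551) and -0.99 for Adrb1 (adjusted p = 0.154), and Adra2c passed as higher with median centring (difference 1.68, adjusted p = 0.0120).

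None of the main fast transmitter genes passed the test. Gad1 and Gad2, which make GABA, differed by -0.02 (adjusted p = 0.947) and 0.10 (adjusted p = 0.765), Slc32a1, which loads GABA into vesicles, by -0.20 (adjusted p = 0.548), and Slc17a6 by 0.20 (adjusted p = 0.478). With median centring these were 0.38 for Gad1, 0.50 for Gad2, 0.22 for Slc32a1 and 0.60 for Slc17a6. The median of all tested probes was then 0.38. Of 16 tested genes of inhibitory neurons 1 passed, Slc6a5, the glycine transporter of glycinergic neurons. It read 8.98, 8.70 and 9.12 in dorsal, against 9.68, 9.65 and 9.89 in ventral, and the regions did not overlap (difference -0.81, SE 0.18, adjusted p = 0.0231). The call was lost without dorsal replicate 1 or 2 or ventral replicate 1 or 3 (highest adjusted p = 0.0901) and with median centring (adjusted p = 0.295), and its dimmer probe differed by -0.14 (adjusted p = 0.821). Of 16 tested glutamatergic genes 1 passed, Grik4, a kainate receptor subunit, higher by 1.43 (SE 0.24, adjusted p = 0.00667).

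Of 34 tested potassium and HCN channel genes 3 (8.82%) were higher and none lower, a share near that of all tested genes, with a list median of 0.11. Kcnj10 and Kcnj16, which encode the inward rectifier subunits Kir4.1 and Kir5.1 of glia and some neurons, read 10.09 to 10.13 and 9.31 to 9.42 in dorsal, against 9.14 to 9.37 and 8.62 to 8.77 in ventral. Both were higher on every dorsal array, by 0.85 (SE 0.17, adjusted p = 0.0138) and 0.66 (SE 0.15, adjusted p = 0.0238). Kcnj10 lost its call without dorsal replicate 3 (adjusted p = 0.0505), and Kcnj16 without any 1 array but ventral replicate 2 (highest adjusted p = 0.0898). The third, Kcnab1, a regulatory subunit of Kv1 channels, was higher by 0.61 (adjusted p = 0.0379), which did not pass with the block (adjusted p = 0.0668) or without any 1 array (highest adjusted p = 0.125). Of its 4 tested probes another was called higher, at least 1.59-fold with ventral at background (adjusted p = 0.0311), and lost the call with the block (adjusted p = 0.0707) and without any 1 array but dorsal replicate 2 (highest adjusted p = 0.104). The other two differed by 0.28 each.

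Of 23 tested sodium and calcium channel genes 1 was higher and 1 lower. Cacna1g, the T-type calcium channel Cav3.1, read 8.83, 8.10 and 8.55 in dorsal, against 7.10, 6.72 and 5.97 in ventral (difference 1.90, SE 0.44, adjusted p = 0.0292). It lost the call without dorsal replicate 1 or 3 or ventral replicate 2 or 3 (highest adjusted p = 0.0908), and its other probes differed by 0.93 and -0.61, neither called. Scn1a, the sodium channel Nav1.1, was lower with a difference of -1.59 (SE 0.34, adjusted p = 0.0197), and the call was lost without dorsal replicate 1 or 2 or ventral replicate 3 (highest adjusted p = 0.0713). Of 8 tested genes of the sodium pump 2 were lower and none higher, and these passed under all alternatives run, among them median centring. Atp1b2, the glial beta subunit, read 8.14, 8.34 and 8.64 in dorsal, against 11.84, 11.40 and 11.90 in ventral, 10.1-fold lower in dorsal (adjusted p = 2.72e-04). Fxyd6, a small regulator of the pump, read 8.96, 9.44 and 9.69 in dorsal, against 11.85, 11.78 and 11.82 in ventral, 5.47-fold lower (adjusted p = 3.91e-04). The median of the 8 genes was 0.05, and the beta subunit gene Atp1b1 differed by -0.08 (adjusted p = 0.811). None of 15 tested genes of calcium-binding proteins passed.

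Among genes that mark position along the neural tube, the share called was near that of all tested genes (9.44%) in both lists. Of 16 tested midbrain and hindbrain transcription factors Nkx2-2 was higher and Meis1 lower in dorsal, with a list median of 0.20. Nkx2-2, which patterns ventral progenitors and later acts in oligodendrocyte precursors, read 9.65, 10.13 and 10.09 in dorsal, against 8.42, 8.70 and 8.77 in ventral (difference 1.33, SE 0.26, adjusted p = 0.0128). It lost the call without dorsal replicate 2 (adjusted p = 0.0520). Meis1, a homeobox partner of Hox proteins, was lower with a difference of -1.57 (SE 0.37, adjusted p = 0.0284), a call lost with the block (adjusted p = 0.0667) and without dorsal replicate 1 or 2 or ventral replicate 1 or 2 (highest adjusted p = 0.0814). It was also the 1 call among 10 tested genes of the Hox list, where Hoxb2 had -0.38 (adjusted p = 0.671).

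Of 10 tested genes of cerebellar neurons, the Purkinje cell genes Pcp2 and Pcp4 were lower, with differences of -1.67 and -0.81 (adjusted p = 0.0484 and 0.0490), and neither passed with the block (adjusted p = 0.0860 and 0.0806). Of 11 tested genes on the list for forebrain neurons, Lmo3 and Tcf7l2, transcriptional regulators, were lower and the homeobox gene Gbx2 higher. Lmo3 read 6.002, 6.80 and 6.59 in dorsal, against 8.12, 8.34 and 8.41 in ventral (difference -1.82, SE 0.22, adjusted p = 0.00170), while its dimmer probe differed by -0.08. Tcf7l2, an effector of Wnt signalling, was lower with a difference of -1.41 (adjusted p = 0.00342) and, at its dimmer probe, by -0.81, which did not pass (adjusted p = 0.227). Gbx2 had 1.30 (adjusted p = 0.0271) and did not pass with the block (adjusted p = 0.0567) or without dorsal replicate 1 or 3 or ventral replicate 1 (highest adjusted p = 0.0810). Pcp2 lost its call without any 1 array but ventral replicate 3, and Pcp4 without any 1 but dorsal replicate 2 (highest adjusted p = 0.139 and 0.134).

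Of 25 tested genes of neurons in general 1 was higher and 3 were lower, with a list median of -0.05. Higher was Ina, the filament protein alpha-internexin, at 10.45, 10.49 and 10.66 in dorsal, against 9.20, 9.69 and 9.51 in ventral (difference 1.07, SE 0.18, adjusted p = 0.00658). Lower was Tagln3, an actin-associated protein of neurons, at 9.76, 9.32 and 8.70 in dorsal, against 11.23, 11.47 and 11.15 in ventral (difference -2.02, SE 0.34, adjusted p = 0.00737). Stmn2, which acts on microtubules, was lower with a difference of -1.17 (adjusted p = 0.0144), without its call when dorsal replicate 2 or 3 was left out (highest adjusted p = 0.0553), and a dimmer Stmn2 probe differed by 0.68 (adjusted p = 0.573). The neuronal enolase gene Eno2 was lower with a difference of -0.74 (adjusted p = 0.0284), a call lost without any 1 array but dorsal replicate 1 (highest adjusted p = 0.0986). With median centring the list had 1 higher and 1 lower. Of 34 tested genes of synaptic vesicles and release, Sv2a was higher by 0.76 (adjusted p = 0.0129) and Syngr1 lower with a difference of -1.63 (adjusted p = 0.00260), both vesicle membrane proteins. Each had a dimmer probe of the opposite sign that did not pass, -0.40 for Sv2a and 0.19 for Syngr1, and Sv2a lost its call without dorsal replicate 2 or 3 (highest adjusted p = 0.0550).

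The 2 lists of the oligodendrocyte lineage held 6 calls each, 23.1% of the tested myelin genes and 50% of the tested precursor genes, beside 9.44% of all tested genes. The lists were chosen with earlier results of these data known, so these shares are a description and no independent contrast. With the 6 arrays alone and the mouse as a block, 1 myelin gene and 3 precursor genes were called. Of 26 tested genes of myelin and mature oligodendrocytes, 1 was higher and 5 were lower in dorsal, and 20 did not pass. The list median was 0.10, above the 0.06 of all tested genes, so the lower calls do not describe the list as a whole. The summed level of the 26 genes ran from 15.96 to 16.04 in dorsal and from 16.37 to 16.43 in ventral. Bright genes weigh most in this sum of linear intensities. Among the lower genes were Bcas1, a marker of newly myelinating oligodendrocytes, the structural genes Mobp and Mbp, and Cldn11, of the tight junctions between myelin layers. Bcas1 read 12.50, 12.49 and 12.27 in dorsal, against 13.75, 13.77 and 13.63 in ventral (difference -1.29, SE 0.19, adjusted p = 0.00373). The dorsal arrays were the low ones and the regions did not overlap.

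Cldn11 differed by -1.24 (adjusted p = 0.00276), Mobp by -1.14 (adjusted p = 0.00594) and Mbp, the myelin basic protein gene, by -0.93 (adjusted p = 0.00565). The calls of Bcas1, Cldn11, Mobp and Mbp, with the higher call of Myrf, passed with the block and without any 1 of the arrays. With the 6 arrays alone and the block Bcas1 was the 1 gene of the list that passed. With median centring the list had 3 higher and 3 lower calls. Mbp and Mobp had 5 tested probes each, and the brightest of each was the 1 that passed. The other Mbp probes differed by -0.17, 0.62, 0.61 and 0.04, and the mean over its 5 probes by 0.033. The other Mobp probes differed by between -0.31 and 0.29. Mog, a myelin surface protein, differed by 0.73 (adjusted p = 0.0720) and Mag, another, by 0.24 (adjusted p = 0.625). Myrf, the transcription factor that switches on myelin genes, was higher, at 8.43, 8.56 and 8.95 in dorsal, against 6.02, 7.18 and 7.28 in ventral (difference 1.82, SE 0.33, adjusted p = 0.00985). Its dimmer probe had 0.73 (adjusted p = 0.0735).

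Of 12 tested genes on the list of oligodendrocyte precursors 5 were higher, 1 was lower and 6 did not pass, with a list median of 0.20 and a summed level of 13.48 to 13.58 in dorsal and 13.16 to 13.19 in ventral. Neu4, a sialidase, read 10.04, 10.14 and 10.07 in dorsal, against 7.49, 7.70 and 7.89 in ventral (difference 2.39, SE 0.16, adjusted p = 1.60e-04). Bcan, which encodes the matrix proteoglycan brevican, read 10.48, 10.71 and 10.63 in dorsal, against 8.58, 8.47 and 8.38 in ventral (difference 2.13, SE 0.15, adjusted p = 2.32e-04). For both genes every dorsal array lay above every ventral array. A dimmer Neu4 probe differed by -0.01 (adjusted p = 0.996), and the dimmer Bcan probes by 0.72 (adjusted p = 0.208) and -0.45 (adjusted p = 0.620).

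Cspg4, the NG2 proteoglycan of precursors and of mural cells, was higher by 0.996 (adjusted p = 0.00691), and Nkx2-2 as given above. Lhfpl3 was higher by 0.82 (adjusted p = 0.0231), a call lost without any 1 array but ventral replicate 3 (highest adjusted p = 0.0819), while its dimmer probes differed by 0.11 and -0.03. Without dorsal replicate 2 the list had 3 higher and 1 lower. Lower was Sox10, a transcription factor of the whole lineage, at 8.01, 8.54 and 8.29 in dorsal, against 9.25, 9.54 and 9.20 in ventral (difference -1.05, SE 0.19, adjusted p = 0.00926). With median centring Sox10 did not pass (adjusted p = 0.102). Pdgfra, the receptor that defines precursors, differed by 0.32 (adjusted p = 0.472), and Olig1 by -0.07 (adjusted p = 0.814).

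**Figure D5:**
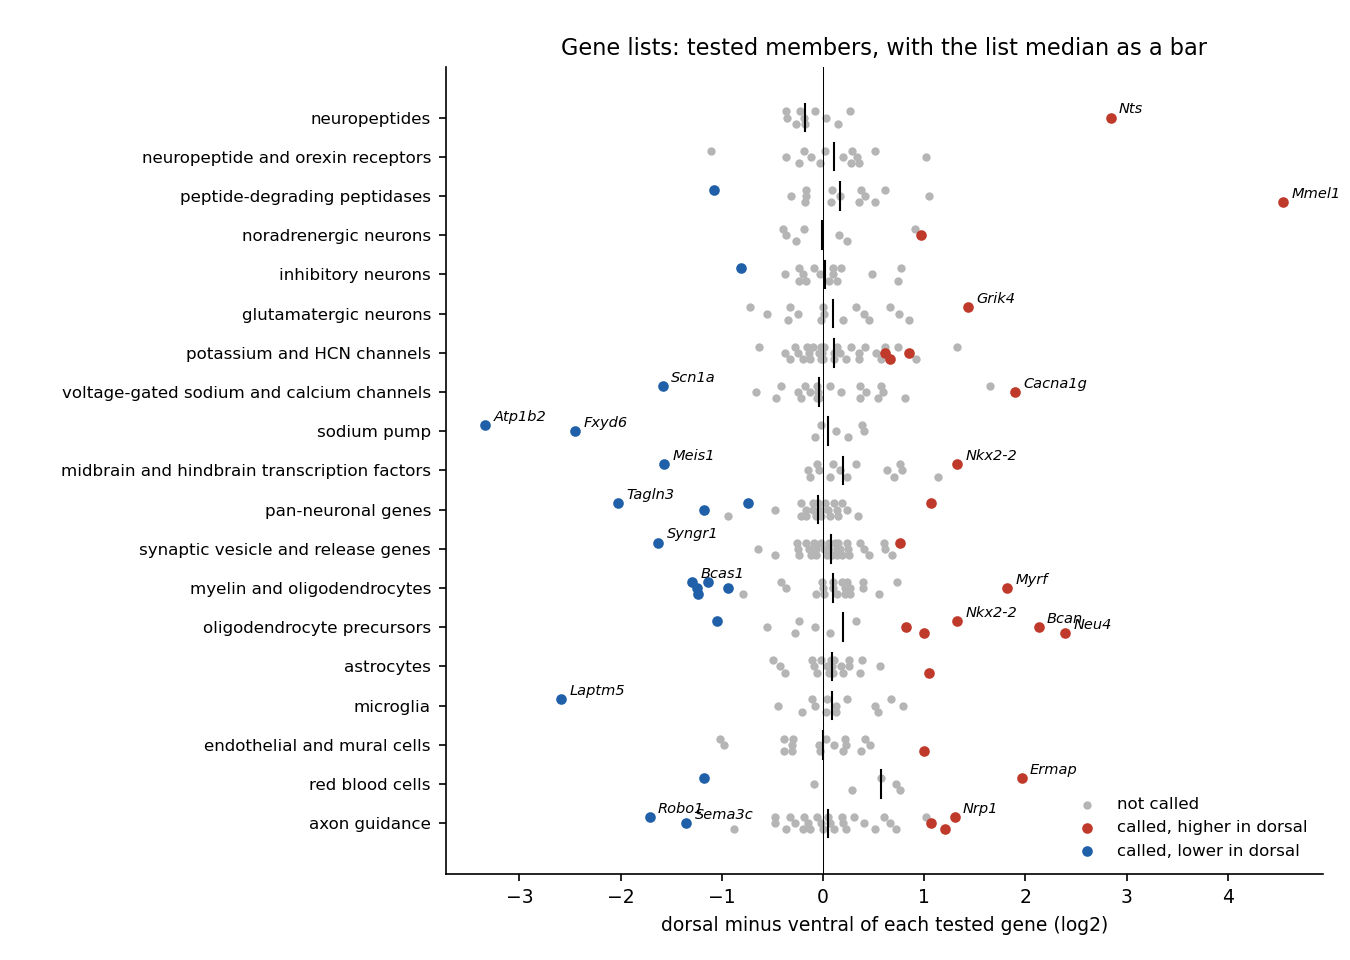
Dorsal minus ventral difference (log2) of each tested gene of 19 lists, by its brightest probe. Red genes were called higher in dorsal, blue genes lower and grey genes were not called, and the black bar is the list median. The medians lie near 0 in most lists, with single called genes far out, such as Nts, Mmel1 and Atp1b2, and the oligodendrocyte precursor list has 5 red genes.

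The lists of astrocytes, microglia, endothelial and mural cells, meninges and ependyma held 1 or no call each. Of 21 tested astrocyte genes Acsbg1, which activates long-chain fatty acids, was higher by 1.05 (SE 0.21, adjusted p = 0.0149) and lost the call without dorsal replicate 2 (adjusted p = 0.0538). Its dimmer probe had 0.20 (adjusted p = 0.818). Gfap, the astrocyte filament gene, read 7.90, 7.81 and 7.83 in dorsal, against 7.48, 7.69 and 7.63 in ventral, with a difference of 0.25 that did not pass (adjusted p = 0.437). Of 14 tested microglial genes Laptm5 was lower, as above, and Aif1, a marker of these cells, had 0.79 (adjusted p = 0.102). The 18 tested genes of endothelial and mural cells held 1 call, that of Cspg4, and the endothelial junction gene Cldn5 had -1.02 (adjusted p = 0.155). None of 5 tested ependymal and choroid plexus genes passed, and the choroid plexus gene Ttr was above background on no dorsal and 1 ventral array. Bmp6, a growth factor on the list of 7 tested meningeal genes, was at least 1.45-fold higher in dorsal (adjusted p = 0.0295), and did not pass with the block (adjusted p = 0.0597) or without any 1 array but ventral replicate 3 (highest adjusted p = 0.0933).

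Red cell genes differed between probes. The summed level of 7 tested genes ran from 11.27 to 11.39 in dorsal and from 11.86 to 12.11 in ventral. This sum adds linear intensities, so bright probes such as the brightest of Hbb-b1 weigh most. The median difference of the 7 genes was 0.58, and 5 of them had a positive difference. Hbb-b1, a beta globin, had 11 tested probes under its current symbol. The brightest, at 10.47, 10.56 and 10.48 in dorsal against 11.61, 11.81 and 11.60 in ventral, was lower with a difference of -1.17 (SE 0.19, adjusted p = 0.00658). Of the others 2 were called higher, by 0.82 and 0.77 (adjusted p = 0.0109 and 0.0261), 1 was called lower, with -0.92 (adjusted p = 0.0143), and 7 did not pass. The smaller higher call was lost with the block (adjusted p = 0.0563) and without dorsal replicate 2 or 3 or ventral replicate 1 or 3 (highest adjusted p = 0.0993), and the further lower call without dorsal replicate 2 (adjusted p = 0.0550). The mean over the probes was 0.068, and with median centring the brightest did not pass (adjusted p = 0.0841). Ermap, a red cell membrane protein, was higher by 1.96 (adjusted p = 0.00312). The part of blood in these regions was not tested further.

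Of 13 tested immediate early genes Arc, which neurons make after activity, was higher, at 9.23, 9.84 and 9.33 in dorsal, against 8.33, 8.02 and 8.28 in ventral (difference 1.26, SE 0.22, adjusted p = 0.00913). Npas4, another activity gene, had 0.72 (adjusted p = 0.300). Of 13 tested clock genes Dbp and Bhlhe40, both transcription factors of the circadian output, were lower with differences of -0.85 and -0.86 (adjusted p = 0.0189 and 0.00985). Both stayed lower with median centring but did not pass (adjusted p = 0.235 and 0.185), and Dbp lost its call without dorsal replicate 1 or 2 or ventral replicate 1 (highest adjusted p = 0.0699). Of 28 tested genes of heat shock and hypoxia 1 passed, the small heat shock protein gene Hspb6, lower with a difference of -1.65 (SE 0.30, adjusted p = 0.00973), with 1 dorsal array above background.

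Of 31 tested axon guidance genes 3 were higher and 2 lower. Robo1, a receptor for Slit proteins, read 8.89, 9.02 and 8.43 in dorsal, against 10.52, 10.48 and 10.48 in ventral (difference -1.71, SE 0.19, adjusted p = 0.00135), while its dimmer probe had 0.74 (adjusted p = 0.172). Sema3c, a secreted semaphorin, was lower with a difference of -1.35 (adjusted p = 0.00985). The semaphorin receptor genes Nrp1 and Nrp2 were higher by 1.30 and 1.20 (adjusted p = 0.0491 and 0.0187), and Sema3f by 1.07 (adjusted p = 0.0139). Nrp1 did not pass with the block (adjusted p = 0.0783) or without any 1 array (highest adjusted p = 0.136), Nrp2 not without dorsal replicate 1 or ventral replicate 2 (highest adjusted p = 0.0629), and Sema3f not without dorsal replicate 3 (adjusted p = 0.0544). The dimmer probes of Nrp1 and Nrp2 differed by 0.06 and -0.39 and were not called. Of 12 tested genes of perineuronal nets, the matrix around some neurons, Bcan was higher and Ncan, which encodes neurocan, lower with a difference of -1.07 (SE 0.18, adjusted p = 0.00750). Ncan read 9.10, 8.92 and 8.96 in dorsal, against 10.35, 10.07 and 9.78 in ventral, and did not pass with median centring (adjusted p = 0.0802). None of 28 tested cadherin and protocadherin genes passed.

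Single genes could hold probes called in opposite directions. Cnot2, of the complex that shortens poly(A) tails, was higher by 2.20 (adjusted p = 0.00242) at the brightest of its 6 tested probes and at least 1.72-fold lower (adjusted p = 0.0314) at a probe that lay at background in dorsal, and the other 4 were not called. The lower call did not pass with the block (adjusted p = 0.0627) or without any 1 array but ventral replicate 1 (highest adjusted p = 0.0966). Rap1gap, which turns off the GTPase Rap1, was lower with a difference of -2.14 at 1 probe (adjusted p = 0.00180) and higher by 1.98 at the other (adjusted p = 0.0189). The higher call was lost without dorsal replicate 2 or 3 or ventral replicate 1 (highest adjusted p = 0.0651). Cand1, which exchanges cullin ligase subunits, read 11.44, 11.23 and 11.43 in dorsal, against 9.98, 10.12 and 10.02 in ventral at 1 probe (difference 1.33, adjusted p = 0.00463). At another it read 7.91, 8.09 and 8.34 in dorsal, against 9.45, 9.21 and 9.67 in ventral (difference -1.33, adjusted p = 0.00365). Syne1, a giant protein of the nuclear envelope, had calls of 2.09 and -1.86 (adjusted p = 0.0122 and 0.0113) among 5 tested probes. In each of these 4 genes the dorsal and ventral arrays separated at both called probes, in opposite directions.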

How the data were processed

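RNA of dorsal and ventral brainstem (with target, 9 arrays) was labelled per the labels' protocols. The deposited tables hold linear intensity values, unnormalized and quantile-normalized, a detection score for each probe, and bead numbers as the other measure, per the file headers. The unnormalized intensities (45281 probes, a median of 43 to 45 beads) were used. Background was corrected by neqc (limma 3.58.1, R 4.3.3) with controls inferred from 1 minus the score, and neqc then added 16, quantile-normalized all 9 arrays and took log2. Probes with a score above 0.95 on 3 of the 6 arrays were tested with lmFit and eBayes on region alone over 9 arrays. Benjamini-Hochberg adjustment covered all 18790, with a limit of 0.05.

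Names follow RefSeq GRCm38.p6: a symbol was found for 12558 tested probes and a synonym for 3454, while 2778 are called as on the array. No probe sequences were used, so overlap with other transcripts is unknown. The brightest tested probe stands for its gene. The lists and members were chosen with earlier results of these data known. Named genes were the 12 largest calls each way, genes with all probes called in the same direction, genes with opposite calls, up to 4 called per list, up to 2 for lists without a call, and 18 fixed genes. Others (Mobp, Mog, Mag, Sema3f, Lhfpl3, Olig1, Pdgfra, Atp1b1, Aif1, Cldn5, Npas4, Ttr and the background markers) were named after their values were seen.

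Same-numbered arrays are the same mouse per the file headers, and their deviations from the region means correlated at 0.03, -0.02 and 0.06. The number of arrays limits the precision. Results for some genes are not reported here.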

Additional observations from a re-analysis of the deposited data

How the results depend on the processing

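The main limits are 3 arrays a region, unknown dissection, and probes of a gene that differ. The count of 1726 called probes (882 higher, 844 lower) fell to 398 (179 higher, 219 lower) when the 6 arrays were fitted alone with the replicate block, and the 6 arrays alone gave 569 higher. Median centring gave 2790 (2351 higher, 439 lower). Leaving out 1 array gave 1022 to 1388 in all, 493 to 724 higher and 529 to 664 lower, lowest without dorsal replicate 2. The replicate block on 9 arrays gave 1477. Background correction, the authors' quantile table, array weights and the detection filters kept each count within 1.5 times. The chip of each array is not in the files used, so it was not run as a block.

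Of the 81 named genes that were called, 11 lost the call with the replicate block and 25 without 1 or more arrays. Losses numbered 44 with the 6 arrays alone and the block, 16 with them alone, 17 with median centring and 13 with the mean over probes. Signs turned with median centring for Enpp2 (0.053), Gad1 (0.38), Gal (0.042) and Slc32a1 (0.22), and for Gad1 without ventral replicate 3, where leaving out 1 array gave -0.055 to 0.032. They turned with the mean over probes for Enpp2 (0.18), Hbb-b1 (0.068), Mbp (0.033), Rarres2 (-0.33) and Syne1 (-0.053). Of these 8 genes Hbb-b1, Mbp and Syne1 had been called. The cause was not tested.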

Other observations

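Ependymal and choroid plexus genes held a disagreement between probes that no list count shows. Rarres2, which encodes the chemoattractant chemerin, differed by 0.91 at its brightest probe (adjusted p = 0.204), was lower in dorsal by -1.70 at another (adjusted p = 0.00485) and differed by -0.21 at the third (adjusted p = 0.723). Enpp2, which makes lysophosphatidic acid, differed by -0.37 at its brightest probe (adjusted p = 0.196) and by 0.01 and 0.89 at the others, none of them called.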
